A study of Homo sapiens with 45 samples.

Results

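The genes described here encode the machinery that starts and carries out DNA replication: 48 genes for the origin recognition complex, the licensing factors, the MCM helicase and its activators, the replicative DNA polymerases, the sliding clamp with its loader, and the proteins that protect the fork. They were taken by symbol from a fixed list, and all 48 were found among the 29159 genes counted. RNA was sequenced from 3 neuroblastoma lines, SK-N-BE(2)C and IMR-32 (both with amplified MYCN) and SH-SY5Y (an ALK-mutant line). Each line was sampled as untreated control cells, after 24 h with 1 μM palbociclib (PB, an inhibitor of the cyclin-dependent kinases CDK4 and CDK6) and after longer PB, which lasted 7 d for SK-N-BE(2)C and 5 d for the other lines. There were 5 replicates in each of the 9 groups, and the study describes them as different passages from separate experiments. Control cells were harvested at 24 h, so in the comparison of longer PB with control the time in culture and the drug cannot be told apart, and the lengths of 7 d and 5 d cannot be told apart from the line.

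Replication is prepared in G1 phase, when the origin recognition complex (ORC1 to ORC6) together with CDC6 and CDT1 loads the hexameric MCM2 to MCM7 helicase onto DNA. At the start of S phase the kinase CDC7 with its activator DBF4, together with cyclin-dependent kinases, switches the helicase on by adding CDC45 and the 4-subunit GINS complex. Many of these genes are transcribed under E2F transcription factors, which the retinoblastoma protein RB holds in check until cyclin D with CDK4 or CDK6 phosphorylates it, so inhibitors of these kinases are known to hold cells in G1.

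The 45 libraries held 13459219 to 25441812 counted reads, so that 1 CPM (counts scaled to 1000000 reads of the library) stood for 18.5 reads at the median depth. Replicate 5 of IMR-32 stood apart. It held the highest CPM of its group for 47 of the 48 genes in the controls, 42 at 24 h and 43 at 5 d, and the main IMR-32 counts are therefore also given without it. Among the 5 d libraries of SH-SY5Y, replicate 5 was highest for 44 of the 48 genes and replicate 1 lowest for 43. The SK-N-BE(2)C replicates were not uniform either. At 24 h replicates 1 and 2 were highest for 14 and 30 of the 48 genes. At 7 d replicate 1 was highest for 31, and replicates 2 and 3 were lowest for 23 and 21. With the counts of SK-N-BE(2)C replicates 3, 4 and 5 summed as 1 library 40 genes were called lower at 24 h and 41 at 7 d, with 5 lower and 2 higher between the times, near the counts given below. Of the adrenergic markers that these lines are known for, HAND2 lay at 388 to 675 CPM in SK-N-BE(2)C cells, 536 to 1143 in IMR-32 cells and 1135 to 1459 in SH-SY5Y cells, and GATA3 at 189 to 734 CPM in all 45 libraries, while TH stayed at or under 0.873 CPM in SH-SY5Y. A list of 8 mesenchymal or fibroblast markers, of which 7 were found, summed to 615 to 833 CPM in the SK-N-BE(2)C controls and 398 to 698 CPM at 7 d. Most of that sum was VIM (median 606 and 293 CPM), while FN1 (31.3 to 45.7 and 60.6 to 220.3 CPM) and CD44 (58.1 to 69.8 and 84.7 to 97.5 CPM) lay higher at 7 d without overlap. The list's control and 5 d sums were 576 to 1081 and 265 to 440 CPM in IMR-32, and 1401 to 1851 and 921 to 1092 CPM in SH-SY5Y, and the part of this shift in the results below was not tested. In IMR-32 its members FOSL1 and CD44 stayed under 0.5 CPM in every library, but replicate 5, the library that stood apart, was also the highest IMR-32 control for SNAI2 (28.2 CPM, the next 1.03), YAP1 (17.4, the next 1.45), VIM (791, the next 361) and FN1 (79.4, the next 29.4). It was again the highest at 24 h for these 4 markers, with SNAI2 at 17.3 CPM and VIM at 639.5 CPM, and the part of this in its replication gene values was not tested. The blood cell markers PTPRC and CD3E stayed under 0.5 CPM in every library, while CD14 reached 4.21 CPM among the SK-N-BE(2)C controls and went from a median of 0.620 CPM in control SH-SY5Y to 2.41 CPM at 5 d, and 3 Schwann cell markers summed to at most 14.0 CPM.

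Promoter sequence is shown first for 9 genes, because E2F sites are what the retinoblastoma pathway is known to act through, and because the expression of these 9 spans the responses described below. Each line gives 150 bases before and 30 bases after the RefSeq start site on GRCh38.p14, 5′ to 3′ on the strand of the gene, and capitals mark every match to the E2F core (TTNNCGC with each N a C or G, read on either strand). The first 5 belong to genes that fell steeply at 24 h, namely ORC1 (chr1:52404394-52404573, minus strand), CDC6 (chr17:40287729-40287908, plus), CDT1 (chr16:88803639-88803818, plus), GINS2 (chr16:85688925-85689104, minus) and CLSPN (chr1:35769949-35770128, minus).
ORC1: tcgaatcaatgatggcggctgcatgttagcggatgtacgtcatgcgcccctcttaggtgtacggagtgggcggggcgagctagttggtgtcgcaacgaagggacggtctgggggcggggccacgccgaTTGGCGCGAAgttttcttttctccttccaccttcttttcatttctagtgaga
CDC6: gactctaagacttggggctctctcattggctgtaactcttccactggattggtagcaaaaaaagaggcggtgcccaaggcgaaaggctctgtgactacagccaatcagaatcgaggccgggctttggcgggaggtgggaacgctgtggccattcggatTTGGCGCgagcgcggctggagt
CDT1: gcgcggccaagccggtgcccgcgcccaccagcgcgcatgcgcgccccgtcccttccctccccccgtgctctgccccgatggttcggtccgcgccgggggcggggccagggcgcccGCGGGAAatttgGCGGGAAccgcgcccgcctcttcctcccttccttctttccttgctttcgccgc
GINS2: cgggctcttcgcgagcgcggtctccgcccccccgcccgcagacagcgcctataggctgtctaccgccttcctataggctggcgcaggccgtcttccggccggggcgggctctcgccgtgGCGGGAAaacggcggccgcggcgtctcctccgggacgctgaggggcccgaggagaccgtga
CLSPN: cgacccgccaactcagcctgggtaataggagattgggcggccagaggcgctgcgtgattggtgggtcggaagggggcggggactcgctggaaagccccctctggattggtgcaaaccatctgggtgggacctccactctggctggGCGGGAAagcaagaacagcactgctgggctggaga
The match of CLSPN began 5 bases before the start site, that of GINS2 31 bases before it and that of CDC6 at base 9 after it, while ORC1 held 2 overlapping matches and CDT1 2 separate ones.

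The other 4 promoters complete the range. MCM10 (chr10:13161408-13161587, plus) fell as steeply as these genes at 24 h without holding a match, ORC3 (chr6:87589985-87590164, plus) held a match and was not called at 24 h in any line (in IMR-32 it stood at -0.47 ± 0.12 and passed the fold limit under 6 alternatives, DESeq2 among them, at -0.55 to -0.50), and neither ORC5 (chr7:104207984-104208163, minus) nor POLD2 (chr7:44123519-44123698, minus) held a match or was called at 24 h.
MCM10: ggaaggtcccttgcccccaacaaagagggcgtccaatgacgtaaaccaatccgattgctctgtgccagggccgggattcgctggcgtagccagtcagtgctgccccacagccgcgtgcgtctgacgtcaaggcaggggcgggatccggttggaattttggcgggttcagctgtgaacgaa
ORC3: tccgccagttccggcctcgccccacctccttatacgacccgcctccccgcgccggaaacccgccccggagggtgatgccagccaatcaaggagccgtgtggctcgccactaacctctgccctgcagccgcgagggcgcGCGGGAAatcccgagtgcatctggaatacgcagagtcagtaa
ORC5: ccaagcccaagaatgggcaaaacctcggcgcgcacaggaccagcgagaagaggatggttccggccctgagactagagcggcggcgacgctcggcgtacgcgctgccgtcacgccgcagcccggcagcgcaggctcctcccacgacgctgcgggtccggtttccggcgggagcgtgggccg
POLD2: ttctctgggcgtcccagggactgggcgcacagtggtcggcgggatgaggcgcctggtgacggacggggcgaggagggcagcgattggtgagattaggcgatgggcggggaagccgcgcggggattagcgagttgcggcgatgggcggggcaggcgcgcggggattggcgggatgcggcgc

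Over the whole windows, from 250 bases before to 50 after the start, the E2F core was found in 31 of the 42 genes with a window, or 73.8%. In the 250 bases before the start alone it was found in 20 of the 42 (47.6%, against 21.9% of the genes tested in all 3 lines). For the whole window the share was 25.6% of the 9733 genes that were tested in all 3 lines and had a window, and 15.3% of the 27305 genes in the table. All 3 licensing genes held it, as did all 4 helicase genes and all 4 fork protection genes with a window, 7 of 8 genes of the clamp, its loader and Okazaki fragments, 6 of 9 polymerase genes, 5 of 8 genes of helicase activation and 2 of 6 origin recognition genes. Of the 14 genes with a window and a mean change below -2 at 24 h, 11 held the E2F core. CDC45, at a mean of -3.26, and FEN1, at -2.18, held none in any window. The core stood in 28 of the 35 genes called lower at 24 h in all 3 lines and in 3 of the other 7. CCAAT, the core of the NF-Y site, stood in 25 of the 42 genes (59.5%, against 43.7% of the genes tested in all lines). The cell cycle homology region (TTTGAA or TTCGAA), known from promoters of genes that peak in mitosis, stood in 3 of them (7.14%, against 14.8%). Both strands were read for each motif, a motif match is no proof of binding, and MCM4, MCM5, GINS4, POLD3, RPA2 and RPA3 had no window.

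The first question was how the replication genes responded to 24 h of PB. They fell together, by a median of -1.28 on the log2 scale in SK-N-BE(2)C cells, -1.86 in IMR-32 cells and -1.63 in SH-SY5Y cells, where the median over all genes tested was 0.02, 0.06 and 0.04. A gene was called lower or higher at an adjusted p under 0.05 in edgeR's quasi-likelihood test together with a log2 change of more than 0.5. By this rule 41 of 48 genes were called lower in SK-N-BE(2)C, where 10.6% of all 14055 genes tested were. The count was 42 in IMR-32 (background 10.5% of 14293) and 42 in SH-SY5Y (background 11% of 14547). In IMR-32 without replicate 5 it was again 42, with a median of -1.82. None was called higher in any line, where 10.9%, 7.87% and 10.5% of all genes were. DESeq2 called none higher either, and at an unadjusted p under 0.05 in edgeR 1, 1 and 0 were higher, the gene being ORC4. The same 41 genes were called lower in all 3 lines, where 5.81% of the 12556 genes tested in every line were. The exceptions were ORC2, ORC3, ORC4, ORC5, POLD2 and POLE3, called in no line, and RFC3, called in IMR-32 and SH-SY5Y. In bulk RNA, fewer cells in S phase and less RNA per cell cannot be told apart.

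**Figure D1:**
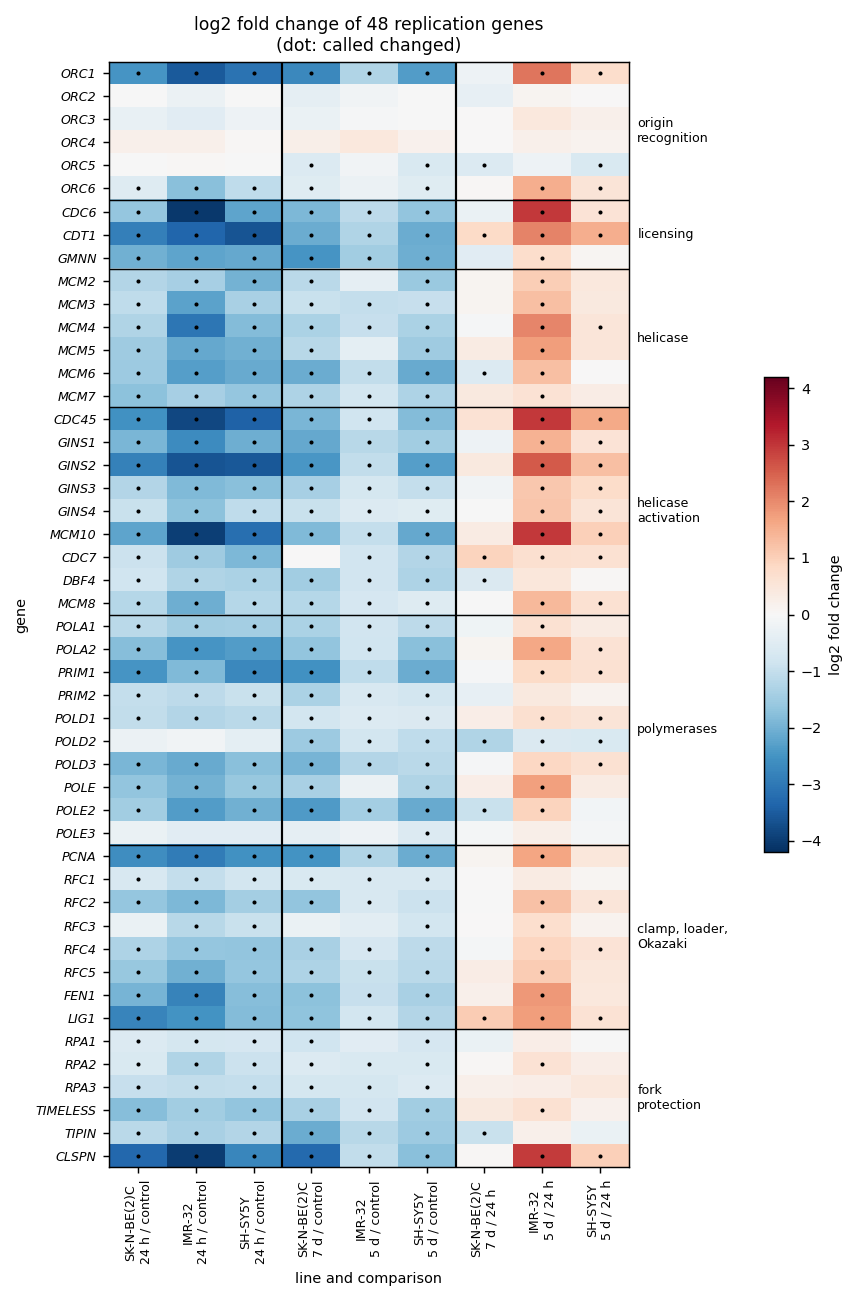
Heat map of the edgeR log2 fold changes of the 48 replication genes (rows, by role) in the 3 lines and 3 comparisons (columns), blue for lower and red for higher, with a dot on each gene called changed. In the 24 h columns each gene carries a dot apart from ORC2 to ORC5, POLD2 and POLE3, and RFC3 in SK-N-BE(2)C, the IMR-32 5 d column is paler, and the IMR-32 column of 5 d against 24 h is red with 36 genes called higher.

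Summed over the 48 genes, the level fell from 6420 ± 69.2 CPM (mean ± SD, n = 5) in control SK-N-BE(2)C to 2720 ± 279 CPM at 24 h and was 2783 ± 378 CPM at 7 d. In IMR-32 the sums were 5790 ± 961, 1807 ± 347 and 3517 ± 412 CPM. SH-SY5Y gave 6056 ± 251, 2187 ± 136 and 2778 ± 565 CPM. No treated library of any line reached its lowest control, and the libraries of IMR-32 after 5 d (3068 to 4176 CPM) lay above those after 24 h (1605 to 2425 CPM), while the treated groups of the other lines overlapped.

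**Figure D2:**
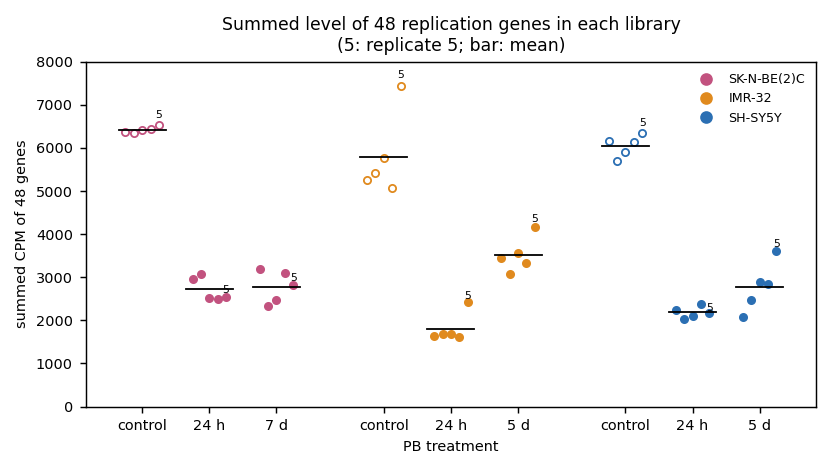
Summed CPM of the 48 replication genes (vertical axis, linear from 0) in each library of the 9 groups, with a bar at each group mean (n = 5) and replicate 5 marked. The control libraries lie between 5067 and 7447 CPM and the treated ones between 1605 and 4176 CPM, with replicate 5 the highest in each group of IMR-32.

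The origin recognition complex marks origins, and its subunits did not move as one. ORC1 and ORC6 were called lower at 24 h in every line (2 of 6 genes), while ORC2 to ORC5 were not called. ORC1 is the subunit known to rise and be degraded with the cell cycle. ORC1 in SK-N-BE(2)C read 29.1, 27.6, 24.6, 23.1 and 24.6 CPM in the controls, 7.19, 8.10, 1.81, 3.01 and 2.91 CPM after 24 h and 6.63, 2.70, 2.44, 5.62 and 3.19 CPM after 7 d. In IMR-32, ORC1 stood at 50.7, 54.4, 56.2, 46.1 and 82.1 CPM in the controls, 4.35, 3.76, 4.61, 3.64 and 8.46 CPM after 24 h and 25.01, 19.9, 25.05, 23.9 and 26.5 CPM after 5 d. In SH-SY5Y, ORC1 was at 42.6, 36.5, 32.1, 39.6 and 43.4 CPM in the controls, 5.58, 4.43, 3.86, 4.92 and 4.24 CPM after 24 h and 4.14, 7.48, 8.21, 8.06 and 12.3 CPM after 5 d. All treated ORC1 libraries lay below the controls in every line, and replicate 5 was the highest control in IMR-32. The log2 change of ORC1 at 24 h was -2.49 ± 0.36 in SK-N-BE(2)C cells, -3.51 ± 0.22 in IMR-32 and -3.08 ± 0.20 in SH-SY5Y cells (± SE, 5 libraries a group, as for all log2 changes below). ORC6 changed by -0.55 ± 0.07 in SK-N-BE(2)C cells, -1.76 ± 0.28 in IMR-32 and -1.08 ± 0.10 in SH-SY5Y cells.

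ORC5, a subunit that stays with the core complex, was on average the member nearest to no change at 24 h. ORC5 in SK-N-BE(2)C measured 26.1, 30.9, 28.05, 30.8 and 32.3 CPM in the controls, 28.7, 34.4, 29.4, 29.9 and 28.5 CPM after 24 h and 18.8, 18.5, 20.5, 22.3 and 21.4 CPM after 7 d. In IMR-32, ORC5 read 14.3, 13.7, 17.6, 14.9 and 24.7 CPM in the controls, 14.7, 18.3, 17.5, 13.1 and 22.2 CPM after 24 h and 14.9, 17.1, 15.99, 16 and 13.8 CPM after 5 d. In SH-SY5Y, ORC5 stood at 26.7, 27.9, 28.7, 27.9 and 31.99 CPM in the controls, 27.8, 27.7, 25.8, 30.01 and 30.001 CPM after 24 h and 12.8, 18.2, 23.8, 17.02 and 23.4 CPM after 5 d. Control and 24 h values overlapped in all 3 lines, with log2 changes of -0.00 ± 0.08 in SK-N-BE(2)C cells, 0.06 ± 0.17 in IMR-32 and -0.03 ± 0.13 in SH-SY5Y cells. After the longer treatment ORC5 fell in SK-N-BE(2)C and SH-SY5Y, with every library below both earlier groups, by -0.59 ± 0.08 and -0.65 ± 0.13 against control. In IMR-32 its groups overlapped, and the change was -0.14 ± 0.17. ORC4, another core subunit, stood above control in all 5 longer libraries of every line, as 26.8%, 19.7% and 27% of all genes did, yet its changes of 0.24 ± 0.07 in SK-N-BE(2)C cells, 0.44 ± 0.08 in IMR-32 and 0.19 ± 0.07 in SH-SY5Y cells did not pass the fold limit.

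The licensing genes CDC6, CDT1 and GMNN were called lower in every line at both times. The call of CDC6 at 5 d in IMR-32, at -1.11 ± 0.43, was lost under 8 alternatives, with changes of -1.18 to -0.80, mostly when 1 control or 5 d library was left out. CDT1 brings the helicase to the origin, and of the 48 genes it had the largest mean rise from 24 h to the longer time after CDC45. CDT1 in SK-N-BE(2)C was at 135, 105, 115, 131 and 115 CPM in the controls, 22.8, 22.2, 12.6, 11.3 and 13.4 CPM after 24 h and 35.5, 19.8, 30.2, 30.9 and 28.6 CPM after 7 d. In IMR-32, CDT1 measured 50.8, 45.2, 50.7, 48.1 and 62.5 CPM in the controls, 4.74, 4.91, 2.53, 5.59 and 7.08 CPM after 24 h and 24.3, 13.9, 21.95, 18.2 and 29.9 CPM after 5 d. In SH-SY5Y, CDT1 read 99.7, 86.5, 93.2, 115 and 93.3 CPM in the controls, 8.84, 5.59, 6.82, 10.2 and 7.80 CPM after 24 h and 11.6, 16.6, 21.97, 31.3 and 37.99 CPM after 5 d. No treated library overlapped a control. At 24 h the log2 change of CDT1 was -2.88 ± 0.21 in SK-N-BE(2)C cells, -3.33 ± 0.24 in IMR-32 and -3.64 ± 0.28 in SH-SY5Y cells. In IMR-32 and SH-SY5Y every 5 d library was above every 24 h library, whereas in SK-N-BE(2)C replicate 2 at 7 d (19.8 CPM) fell among the 24 h values. The change of CDT1 from 24 h to the longer time was 0.79 ± 0.20 in SK-N-BE(2)C cells, 2.08 ± 0.24 in IMR-32 and 1.54 ± 0.28 in SH-SY5Y cells, called higher in each.

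CDC6 is the ATPase that works with ORC to load the helicase. CDC6 in SK-N-BE(2)C stood at 155, 176, 159, 169 and 163 CPM in the controls, 70.5, 77.98, 39.9, 39.7 and 42.97 CPM after 24 h and 66.2, 29.9, 30.2, 57.3 and 45.1 CPM after 7 d. In IMR-32, CDC6 was at 69.01, 72.9, 82.7, 62.4 and 155 CPM in the controls, 2.44, 3.31, 2.93, 2.61 and 14.97 CPM after 24 h and 37.3, 30.8, 41.6, 37.4 and 59.9 CPM after 5 d. In SH-SY5Y, CDC6 measured 104, 92.8, 88, 95.5 and 107 CPM in the controls, 23.97, 19.6, 19.04, 24.8 and 18.95 CPM after 24 h and 19.4, 28.1, 36.9, 32.2 and 46.8 CPM after 5 d. In IMR-32 the 24 h values were 2.44 to 3.31 CPM apart from replicate 5, at 14.97 CPM. The log2 change of CDC6 at 24 h was -1.63 ± 0.25 in SK-N-BE(2)C cells, -4.07 ± 0.50 in IMR-32 and -2.20 ± 0.18 in SH-SY5Y cells, and in IMR-32 without replicate 5 it was -4.61.

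GMNN encodes geminin, which binds CDT1 and blocks a second round of licensing. GMNN in SK-N-BE(2)C read 81.4, 80.1, 81.5, 85.3 and 84.3 CPM in the controls, 25.4, 22.6, 19, 18.2 and 18.9 CPM after 24 h and 22.5, 9.88, 8.91, 17.6 and 16.9 CPM after 7 d. In IMR-32, GMNN stood at 45.4, 48.4, 51.7, 43.96 and 72.98 CPM in the controls, 8.995, 13.02, 11.6, 8.58 and 13.2 CPM after 24 h and 18.7, 16.9, 19.03, 17.04 and 25.4 CPM after 5 d. In SH-SY5Y, GMNN was at 67.7, 60.7, 73.5, 66.3 and 72.5 CPM in the controls, 15.3, 13.9, 17.2, 17.8 and 13.2 CPM after 24 h and 10.6, 13.7, 18.8, 18.9 and 23.6 CPM after 5 d. The treated libraries lay below the controls in every line, and from 24 h to the longer time only IMR-32 separated, upward. GMNN changed by -2.02 ± 0.20 in SK-N-BE(2)C cells, -2.20 ± 0.18 in IMR-32 and -2.15 ± 0.16 in SH-SY5Y cells at 24 h, the smallest mean fall of the 3 licensing genes.

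**Figure D3:**
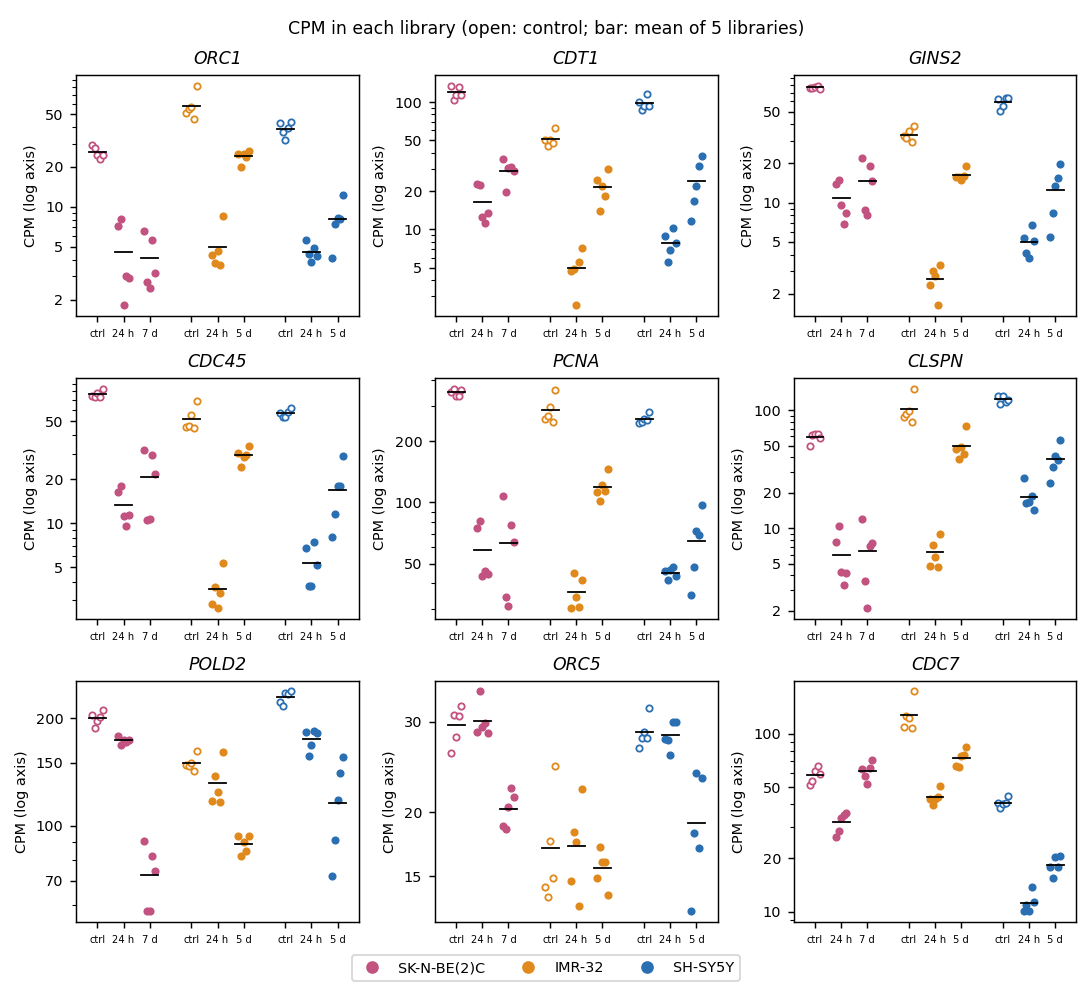
CPM of ORC1, CDT1, GINS2, CDC45, PCNA, CLSPN, POLD2, ORC5 and CDC7 in each library (points, log axis) by line and time. The first 6 drop at 24 h in all 3 lines and climb furthest by 5 d in IMR-32, POLD2 drops mainly at the longer time, ORC5 keeps its level at 24 h, and CDC7 is back among its controls (51.7 to 66.1 CPM) at 7 d in SK-N-BE(2)C.

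The helicase genes MCM2 to MCM7 were called lower at 24 h in all 3 lines, 6 of 6 each, with medians of -1.38, -2.21 and -1.90. MCM4 fell furthest on average. MCM4 in SK-N-BE(2)C measured 566, 601, 595, 569 and 596 CPM in the controls, 269, 308, 222, 217 and 219 CPM after 24 h and 267, 207, 201, 277 and 245 CPM after 7 d. In IMR-32, MCM4 read 298, 339.9, 344, 289.9 and 498 CPM in the controls, 34.7, 34.96, 34.95, 30.8 and 74.6 CPM after 24 h and 172, 153, 187, 164 and 233 CPM after 5 d. In SH-SY5Y, MCM4 stood at 363, 329.5, 318, 342 and 375 CPM in the controls, 106, 94.5, 88.6, 111 and 87.6 CPM after 24 h and 87.6, 131, 151, 151 and 206 CPM after 5 d. In IMR-32, 4 of the 24 h libraries were at 30.8 to 34.96 CPM and replicate 5 at 74.6 CPM, all below the lowest control. MCM4 changed by -1.27 ± 0.11 in SK-N-BE(2)C cells, -3.04 ± 0.24 in IMR-32 and -1.84 ± 0.17 in SH-SY5Y cells.

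MCM2 changed least among the 6 on average over the lines, though in no single line. MCM2 in SK-N-BE(2)C was at 465, 427, 417, 436 and 434 CPM in the controls, 222, 214, 170.0, 166 and 171 CPM after 24 h and 246, 155, 189.9, 225 and 203 CPM after 7 d. In IMR-32, MCM2 measured 337, 343, 365, 326 and 456 CPM in the controls, 114, 121, 121, 107 and 216 CPM after 24 h and 298, 248, 286, 269 and 328 CPM after 5 d. In SH-SY5Y, MCM2 read 332, 306, 311, 345 and 334 CPM in the controls, 87.6, 70.3, 71.2, 101 and 86.7 CPM after 24 h and 66.96, 94.6, 122, 120.0 and 180.4 CPM after 5 d. At 24 h each treated library lay below its controls, with changes of -1.24 ± 0.12 in SK-N-BE(2)C cells, -1.39 ± 0.17 in IMR-32 and -1.97 ± 0.21 in SH-SY5Y cells. After 5 d in IMR-32 the MCM2 libraries overlapped the controls, and the change of -0.37 ± 0.17 was not called (edgeR adjusted p = 0.0802). MCM5 was likewise not called there, at -0.42 ± 0.21, so that 4 of the 6 helicase genes were called lower at 5 d in IMR-32 against 6 of 6 in the other lines. Per kilobase of canonical transcript, MCM7 and PCNA were the most abundant of the 48 genes in control cells, at 261 and 273 CPM per kb in SK-N-BE(2)C cells, 199 and 224 in IMR-32 cells and 300 and 202 in SH-SY5Y cells. On the same scale ORC4 was the least abundant in SK-N-BE(2)C (4.40) and SH-SY5Y (7.45), and TIPIN in IMR-32 (7.05).

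The 9 genes grouped under helicase activation were CDC45, GINS1 to GINS4, MCM10, CDC7, DBF4 and MCM8. MCM8, which is outside the MCM2 to MCM7 helicase, was placed in this group by the list used here. All 9 genes were called lower at 24 h in every line. GINS2, a subunit of GINS, fell furthest of them on average. GINS2 in SK-N-BE(2)C stood at 75.99, 76, 77.2, 79.4 and 75.2 CPM in the controls, 13.99, 14.98, 9.65, 6.91 and 8.39 CPM after 24 h and 22.2, 8.80, 8.11, 19.3 and 14.8 CPM after 7 d. In IMR-32, GINS2 was at 32.3, 31.3, 35.2, 29.1 and 38.7 CPM in the controls, 2.35, 3.005, 2.73, 1.63 and 3.32 CPM after 24 h and 15.8, 15.7, 14.8, 16.1 and 18.99 CPM after 5 d. In SH-SY5Y, GINS2 measured 62.5, 50.9, 55.3, 63.1 and 64.03 CPM in the controls, 5.34, 4.08, 3.74, 6.78 and 5.08 CPM after 24 h and 5.43, 8.37, 13.5, 15.4 and 19.99 CPM after 5 d. The 24 h libraries were at 1.63 to 14.98 CPM against 29.1 to 79.4 CPM in the controls of the 3 lines. GINS2 changed by -2.85 ± 0.27 in SK-N-BE(2)C cells, -3.63 ± 0.16 in IMR-32 and -3.56 ± 0.28 in SH-SY5Y cells, and GINS1, GINS3 and GINS4 by between -0.94 ± 0.11 (GINS4 in SK-N-BE(2)C) and -2.64 ± 0.22 (GINS1 in IMR-32).

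CDC45, which joins MCM and GINS into the working helicase, had the largest mean rise between 24 h and the longer time. CDC45 in SK-N-BE(2)C read 74.6, 73.2, 78.2, 73.5 and 83.6 CPM in the controls, 16.3, 17.9, 11.3, 9.65 and 11.4 CPM after 24 h and 31.6, 10.6, 10.7, 29.3 and 21.7 CPM after 7 d. In IMR-32, CDC45 stood at 45.8, 46.2, 54.8, 44.6 and 69.01 CPM in the controls, 2.84, 3.66, 2.63, 3.36 and 5.39 CPM after 24 h and 30.2, 24.1, 28.7, 29.5 and 33.7 CPM after 5 d. In SH-SY5Y, CDC45 was at 57.3, 53.5, 53.8, 57.9 and 61.9 CPM in the controls, 6.76, 3.73, 3.74, 7.47 and 5.24 CPM after 24 h and 8.06, 11.6, 18.1, 18.1 and 29.1 CPM after 5 d. In IMR-32 and SH-SY5Y each 5 d library was above each 24 h library and below each control. In SK-N-BE(2)C the 7 d values split, with replicates 2 and 3 at 10.6 and 10.7 CPM among the 24 h values and the others at 21.7 to 31.6 CPM. CDC45 changed by -2.55 ± 0.29 in SK-N-BE(2)C cells, -3.83 ± 0.19 in IMR-32 and -3.40 ± 0.30 in SH-SY5Y cells at 24 h and by 0.62 ± 0.29 in SK-N-BE(2)C cells, 2.99 ± 0.19 in IMR-32 and 1.59 ± 0.30 in SH-SY5Y cells from there to the longer time, and the last comparison was not called in SK-N-BE(2)C (edgeR adjusted p = 0.0796).

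MCM10 helps the activated helicase leave the origin, and its promoter, shown above, held no E2F core, like those of ORC5 and POLD2. MCM10 in SK-N-BE(2)C measured 109.5, 117, 124, 113 and 117 CPM in the controls, 34.2, 36.9, 19.1, 16.95 and 20.1 CPM after 24 h and 38.96, 30.6, 27.8, 35.9 and 31.8 CPM after 7 d. In IMR-32, MCM10 read 75.9, 82.5, 91.9, 69.9 and 132 CPM in the controls, 3.96, 3.51, 4.07, 4.23 and 13.2 CPM after 24 h and 41.2, 37.9, 45.4, 44.3 and 61.6 CPM after 5 d. In SH-SY5Y, MCM10 stood at 139, 109.9, 117, 131 and 138 CPM in the controls, 17.1, 13.2, 10.3, 17.4 and 13.2 CPM after 24 h and 11.6, 21.1, 29.8, 33.8 and 52.7 CPM after 5 d. Its 24 h libraries were all below the controls, and IMR-32 replicate 5 (13.2 CPM) stood above the other 24 h libraries of that line (3.51 to 4.23 CPM). MCM10 changed by -2.22 ± 0.19 in SK-N-BE(2)C cells, -3.95 ± 0.35 in IMR-32 and -3.17 ± 0.31 in SH-SY5Y cells, and by -4.29 in IMR-32 without replicate 5.

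CDC7 and DBF4 form the kinase that starts origins. DBF4, the regulatory subunit, changed least of the 9 genes at 24 h on average, though GINS4 and MCM8 changed less in SH-SY5Y. DBF4 in SK-N-BE(2)C was at 51.9, 52.97, 43.8, 49.04 and 47.5 CPM in the controls, 27.6, 36.3, 25.9, 24.8 and 23.96 CPM after 24 h and 24.2, 15.9, 14.2, 19.3 and 18.9 CPM after 7 d. In IMR-32, DBF4 measured 55.1, 59.1, 53.6, 44.2 and 62.98 CPM in the controls, 23.4, 20.7, 19.7, 21.9 and 24.8 CPM after 24 h and 28.97, 28.2, 30.95, 31.1 and 38.6 CPM after 5 d. In SH-SY5Y, DBF4 read 82.1, 73.4, 79.03, 78.4 and 90.7 CPM in the controls, 31.5, 31.4, 30.7, 34.3 and 33.98 CPM after 24 h and 24.02, 29.1, 36.8, 41.1 and 42.5 CPM after 5 d. All treated DBF4 libraries were below the controls, and in SK-N-BE(2)C 4 of the 5 libraries at 7 d were below the lowest 24 h library. DBF4 changed by -0.85 ± 0.14 in SK-N-BE(2)C cells, -1.27 ± 0.11 in IMR-32 and -1.33 ± 0.12 in SH-SY5Y cells at 24 h and by -1.45 ± 0.14 in SK-N-BE(2)C cells, -0.81 ± 0.11 in IMR-32 and -1.28 ± 0.12 in SH-SY5Y cells at the longer time.

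CDC7, the catalytic subunit, took a different course in SK-N-BE(2)C. CDC7 in SK-N-BE(2)C stood at 51.7, 54.4, 62.1, 66.1 and 59.04 CPM in the controls, 26.3, 28.5, 33.5, 35.1 and 35.99 CPM after 24 h and 63.3, 57.5, 51.95, 64.3 and 70.8 CPM after 7 d. In IMR-32, CDC7 was at 109, 126, 122, 108 and 173 CPM in the controls, 42.8, 39.6, 43.03, 43.8 and 50.9 CPM after 24 h and 65.4, 64.7, 74.97, 75.5 and 84.5 CPM after 5 d. In SH-SY5Y, CDC7 measured 40.7, 38.4, 40.3, 40.6 and 44.5 CPM in the controls, 10.1, 10.8, 10.03, 13.7 and 11.3 CPM after 24 h and 17.7, 15.5, 20.4, 17.7 and 20.6 CPM after 5 d. The 7 d libraries of SK-N-BE(2)C overlapped their controls (51.95 to 70.8 against 51.7 to 66.1 CPM) and lay above the 24 h libraries, while in the other lines the 5 d libraries stood between 24 h and control without overlap. CDC7 changed by -0.91 ± 0.10 in SK-N-BE(2)C cells, -1.49 ± 0.13 in IMR-32 and -1.88 ± 0.10 in SH-SY5Y cells at 24 h and by 0.03 ± 0.10 in SK-N-BE(2)C cells, -0.82 ± 0.12 in IMR-32 and -1.22 ± 0.10 in SH-SY5Y cells at the longer time, the first value of the latter being the only one of helicase activation that was not called.

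Among the 10 polymerase genes, 8 were called lower at 24 h in each line, all but POLD2 and POLE3. PRIM1, the catalytic subunit of the primase that makes the RNA primers, fell furthest on average. PRIM1 in SK-N-BE(2)C read 50.1, 53.4, 56.1, 58.7 and 56.02 CPM in the controls, 12.3, 11.6, 7.72, 8.87 and 9.56 CPM after 24 h and 14.1, 6.32, 6.18, 12.2 and 9.97 CPM after 7 d. In IMR-32, PRIM1 stood at 55.97, 63.9, 63.9, 56.3 and 83.3 CPM in the controls, 16.5, 15.98, 20.2, 16.4 and 17.3 CPM after 24 h and 28.04, 28.8, 30.7, 29.9 and 40.05 CPM after 5 d. In SH-SY5Y, PRIM1 was at 41.4, 39.1, 39.4, 37.5 and 45.6 CPM in the controls, 5.99, 5.12, 6.47, 7.51 and 5.81 CPM after 24 h and 4.87, 7.36, 11.9, 11.03 and 15.2 CPM after 5 d. The controls (37.5 to 83.3 CPM) and the treated libraries did not overlap in any line, and PRIM1 changed by -2.48 ± 0.20 in SK-N-BE(2)C cells, -1.86 ± 0.13 in IMR-32 and -2.72 ± 0.22 in SH-SY5Y cells at 24 h. POLA2, the accessory subunit of DNA polymerase α, changed by -1.78 ± 0.12 in SK-N-BE(2)C cells, -2.47 ± 0.16 in IMR-32 and -2.35 ± 0.16 in SH-SY5Y cells and POLE2, a subunit of DNA polymerase ε, by -1.45 ± 0.20 in SK-N-BE(2)C cells, -2.36 ± 0.26 in IMR-32 and -2.03 ± 0.24 in SH-SY5Y cells.

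POLD2, an accessory subunit of DNA polymerase δ, followed another time course. POLD2 in SK-N-BE(2)C measured 205, 188, 197, 202 and 212 CPM in the controls, 179, 169, 174, 172 and 174 CPM after 24 h and 90.5, 57.4, 57.6, 81.9 and 74.7 CPM after 7 d. In IMR-32, POLD2 read 148, 147, 150.3, 143 and 162 CPM in the controls, 117, 138, 124, 117 and 161 CPM after 24 h and 93.7, 82.2, 90.2, 84.6 and 93.3 CPM after 5 d. In SH-SY5Y, POLD2 stood at 223, 217, 235, 234 and 238 CPM in the controls, 184, 157, 169, 184 and 182 CPM after 24 h and 72.2, 90.8, 118, 140.5 and 156 CPM after 5 d. At 24 h the POLD2 values overlapped the controls in IMR-32 and lay just under them in the other lines. Its changes of -0.24 ± 0.10 in SK-N-BE(2)C cells, -0.15 ± 0.09 in IMR-32 and -0.40 ± 0.16 in SH-SY5Y cells were not called. At the longer time every library was below every 24 h library in all 3 lines. POLD2 then changed by -1.27 ± 0.11 in SK-N-BE(2)C cells, -0.62 ± 0.09 in IMR-32 and -0.65 ± 0.16 in SH-SY5Y cells from 24 h, the only gene of the 48 called lower in all 3 lines in that comparison, where 0.709% of the 12556 genes were. POLE3, a histone-fold subunit of polymerase ε that also serves in chromatin remodelling, was called in only 1 of the 9 comparisons, at -0.56 ± 0.07 after 5 d in SH-SY5Y. At 24 h POLE3 lay just short of the fold limit in that line, at -0.49 ± 0.07, and passed it under 9 alternatives (-0.51 to -0.50), as it did in IMR-32 under 5.

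The clamp PCNA, which holds the polymerases on DNA, fell furthest on average among the genes of the clamp, its loader and Okazaki fragments. PCNA in SK-N-BE(2)C was at 351, 364, 334, 336 and 356 CPM in the controls, 74.6, 81.2, 43.6, 45.8 and 44.5 CPM after 24 h and 108, 34.3, 30.9, 77.2 and 63.5 CPM after 7 d. In IMR-32, PCNA measured 259, 265, 296, 250.1 and 359.9 CPM in the controls, 30.1, 44.8, 34.3, 30.7 and 41.6 CPM after 24 h and 112, 102, 122, 113 and 146 CPM after 5 d. In SH-SY5Y, PCNA read 247, 249, 258, 254 and 280.0 CPM in the controls, 45.7, 41.6, 46.6, 47.9 and 43.2 CPM after 24 h and 34.8, 48.1, 72.6, 68.96 and 96.8 CPM after 5 d. The lowest control, at 247 CPM in SH-SY5Y, was above the highest treated library of any line, at 146 CPM in IMR-32. PCNA changed by -2.61 ± 0.31 in SK-N-BE(2)C cells, -2.93 ± 0.15 in IMR-32 and -2.53 ± 0.21 in SH-SY5Y cells at 24 h. LIG1, the ligase that seals Okazaki fragments, changed by -2.76 ± 0.19 in SK-N-BE(2)C cells, -2.52 ± 0.07 in IMR-32 and -1.83 ± 0.13 in SH-SY5Y cells and FEN1, the flap nuclease, by -1.96 ± 0.16 in SK-N-BE(2)C cells, -2.79 ± 0.23 in IMR-32 and -1.79 ± 0.16 in SH-SY5Y cells. The large loader subunit RFC1 changed less, by -0.66 ± 0.04 in SK-N-BE(2)C cells, -1.01 ± 0.13 in IMR-32 and -0.76 ± 0.06 in SH-SY5Y cells.

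RFC3, a small subunit of the clamp loader, was nearest to 0 in this group on average, through SK-N-BE(2)C, while RFC1 was nearer to 0 in the other lines. RFC3 in SK-N-BE(2)C stood at 169, 167, 149, 150.5 and 154 CPM in the controls, 153, 146, 119, 117 and 123 CPM after 24 h and 132, 117, 131, 154 and 141 CPM after 7 d. In IMR-32, RFC3 was at 73.96, 75.6, 88.7, 68.1 and 145 CPM in the controls, 32.02, 33.4, 32.9, 27.3 and 69.3 CPM after 24 h and 61.1, 57.8, 70.96, 66.2 and 76.2 CPM after 5 d. In SH-SY5Y, RFC3 measured 93.2, 96.7, 84.6, 94.9 and 102 CPM in the controls, 49.5, 51.6, 42.5, 60.3 and 45.97 CPM after 24 h and 43.7, 54.7, 60.5, 58.9 and 71.6 CPM after 5 d. Its control and 24 h values overlapped in SK-N-BE(2)C and, through replicate 5 (69.3 CPM), in IMR-32. RFC3 changed by -0.29 ± 0.09 in SK-N-BE(2)C cells, -1.17 ± 0.25 in IMR-32 and -0.93 ± 0.11 in SH-SY5Y cells, and the first of these did not pass the fold limit.

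All 6 fork protection genes were called lower at 24 h in every line. CLSPN encodes claspin, which links the moving fork to the checkpoint kinase CHK1. CLSPN in SK-N-BE(2)C read 49.9, 61.4, 63.2, 62.7 and 58.1 CPM in the controls, 7.64, 10.5, 4.28, 3.29 and 4.17 CPM after 24 h and 12.1, 3.62, 2.10, 7.03 and 7.49 CPM after 7 d. In IMR-32, CLSPN stood at 87.3, 92.3, 99.1, 79.9 and 153 CPM in the controls, 4.84, 7.26, 5.75, 4.72 and 8.89 CPM after 24 h and 46.6, 38.7, 49.3, 42.3 and 72.9 CPM after 5 d. In SH-SY5Y, CLSPN was at 132, 114, 132, 118 and 123 CPM in the controls, 26.5, 16.5, 16.7, 18.7 and 14.3 CPM after 24 h and 24.02, 33.4, 41.4, 37.7 and 55.7 CPM after 5 d. Treated and control libraries did not overlap, and in IMR-32 the 5 d libraries (38.7 to 72.9 CPM) were well above the 24 h libraries (4.72 to 8.89 CPM). CLSPN changed by -3.31 ± 0.38 in SK-N-BE(2)C cells, -3.98 ± 0.25 in IMR-32 and -2.75 ± 0.20 in SH-SY5Y cells at 24 h, the largest fall in SK-N-BE(2)C among all 48 genes.

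RPA1, the large subunit of the single-strand binding protein, changed least of the 6. RPA1 in SK-N-BE(2)C measured 123, 114, 109, 117 and 117 CPM in the controls, 85.8, 84.3, 75.2, 77.6 and 77.6 CPM after 24 h and 72.1, 59.6, 61.4, 70.2 and 68.02 CPM after 7 d. In IMR-32, RPA1 read 159.6, 161, 166, 162 and 220.3 CPM in the controls, 97.1, 92.8, 91.2, 91.99 and 129 CPM after 24 h and 129.6, 119, 121, 116 and 142 CPM after 5 d. In SH-SY5Y, RPA1 stood at 217, 206, 216, 214 and 219 CPM in the controls, 125, 126, 131, 145 and 135 CPM after 24 h and 116, 128, 144, 143 and 154 CPM after 5 d. Even so no 24 h library of RPA1 overlapped the controls, with changes of -0.57 ± 0.07 in SK-N-BE(2)C cells, -0.75 ± 0.12 in IMR-32 and -0.70 ± 0.07 in SH-SY5Y cells. RPA2 and RPA3 changed by between -0.63 ± 0.07 (RPA2 in SK-N-BE(2)C) and -1.25 ± 0.11 (RPA2 in IMR-32).

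TIPIN pairs with TIMELESS to steady the fork. TIPIN in SK-N-BE(2)C was at 30.9, 31.7, 31.7, 30.4 and 31.7 CPM in the controls, 13.8, 16.8, 14.8, 13.6 and 13.1 CPM after 24 h and 8.15, 5.34, 7.10, 9.25 and 7.99 CPM after 7 d. In IMR-32, TIPIN measured 10.5, 10.5, 10.1, 10.2 and 19.7 CPM in the controls, 4.94, 3.41, 4.81, 3.47 and 6.26 CPM after 24 h and 4.89, 4.47, 5.45, 4.71 and 7.67 CPM after 5 d. In SH-SY5Y, TIPIN read 20.9, 18.9, 20.1, 19.6 and 22.2 CPM in the controls, 7.54, 10.5, 6.94, 9.93 and 8.64 CPM after 24 h and 5.93, 6.03, 9.17, 7.11 and 9.0 CPM after 5 d. In SK-N-BE(2)C the 7 d libraries (5.34 to 9.25 CPM) were all below the 24 h libraries (13.1 to 16.8 CPM). TIPIN changed by -1.15 ± 0.11 in SK-N-BE(2)C cells, -1.37 ± 0.23 in IMR-32 and -1.23 ± 0.14 in SH-SY5Y cells at 24 h and by -2.09 ± 0.12 in SK-N-BE(2)C cells, -1.18 ± 0.23 in IMR-32 and -1.51 ± 0.14 in SH-SY5Y cells at the longer time. TIMELESS changed by -1.78 ± 0.06 in SK-N-BE(2)C cells, -1.44 ± 0.15 in IMR-32 and -1.66 ± 0.12 in SH-SY5Y cells at 24 h. At the longer time TIMELESS was at -1.38 ± 0.06 in SK-N-BE(2)C cells, -0.81 ± 0.15 in IMR-32 and -1.47 ± 0.12 in SH-SY5Y cells.

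The next question was whether the fall lasted. Against control, longer PB left 42 of 48 genes called lower in SK-N-BE(2)C (background 22.3%), 37 of 48 in IMR-32 (15.5%) and 45 of 48 in SH-SY5Y (17.3%), and none called higher, where 24.5%, 16.6% and 18.6% of all genes were. DESeq2 called none higher, and at an unadjusted p under 0.05 in edgeR 1 was higher in each line, again ORC4. The medians were -1.35, -0.80 and -1.23, where the medians of all genes were 0.01, 0.00 and 0.01. In IMR-32 without replicate 5 the count was 36 and the median -0.74, GINS4 being the call that was lost. In all 3 lines 36 genes were called lower (6.5% of all genes tested in every line). Not called in at least 1 line were ORC2 to ORC6, MCM2, MCM5, CDC7, POLE, POLE3, RFC3 and RPA1. Of these ORC5, ORC6, MCM2, MCM5, POLE and RPA1 were missing in IMR-32 only. RPA1 in IMR-32 passed the fold limit under 7 alternatives, DESeq2 among them, at -0.53 to -0.50. The call of ORC6 was lost under 4 alternatives in SK-N-BE(2)C (-0.497 to -0.467) and 3 in SH-SY5Y (-0.499 to -0.448). The largest falls against control at the longer time were -3.26 ± 0.38 for CLSPN in SK-N-BE(2)C, -1.45 ± 0.17 for GMNN in IMR-32, beside -1.44 ± 0.25 for POLE2, and -2.34 ± 0.19 for ORC1 in SH-SY5Y. Without IMR-32 replicate 5 GMNN was at -1.41 and POLE2, then the lowest of that line, at -1.50.

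Between 24 h and the longer time the lines parted. In IMR-32, 36 of the 48 genes were called higher at 5 d than at 24 h, where 10.8% of all genes were, and 1, POLD2, was called lower (background 8.86%). In SH-SY5Y 21 were called higher (10.5%) and 2, POLD2 and ORC5, lower (6.23%). In SK-N-BE(2)C 3 were called higher (17.5%) and 6 lower (14.4%). The medians were 0.97, 0.45 and 0.02 in this order, against -0.00, 0.00 and 0.01 for all genes. Without replicate 5 the IMR-32 counts were 36 and 1, with a median of 1.08. Without replicate 5 of the 5 d group the SH-SY5Y count of genes called higher was 11, and without replicate 1 no gene was called lower there.

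By role, the rise in IMR-32 covered all 3 licensing genes, all 6 helicase genes, 8 of 9 genes of helicase activation, 7 of 10 polymerase genes and 7 of 8 genes of the clamp, loader and Okazaki group. It covered 3 of 6 fork protection genes and 2 of 6 origin recognition genes. The largest rises there were 2.99 ± 0.19 for CDC45, 2.96 ± 0.48 for CDC6, 2.96 ± 0.34 for MCM10 and 2.94 ± 0.24 for CLSPN. Without replicate 5 these were 3.11, 3.64, 3.36 and 2.90. In SH-SY5Y 8 of the 21 genes belonged to helicase activation, while MCM4 was the only one of the 6 helicase genes to be called, at 0.52 ± 0.16. With the replicate number as a block MCM4 was at 0.49 and no longer called.

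Only CDT1, CDC7 and LIG1 were called higher in all 3 lines, where 1.92% of the 12556 genes were. With SK-N-BE(2)C replicates 3 to 5 summed as 1 library CDT1 was at 0.57 in that line and not called, and without 5 d replicate 5 LIG1 in SH-SY5Y was at 0.49 and not called. CDT1 and CDC7 are described above, and LIG1 changed by 1.06 ± 0.19 in SK-N-BE(2)C cells, 1.76 ± 0.07 in IMR-32 and 0.60 ± 0.13 in SH-SY5Y cells. Called lower at 7 d than at 24 h in SK-N-BE(2)C were POLD2 (-1.27 ± 0.11), TIPIN (-0.94 ± 0.12), POLE2 (-0.94 ± 0.21), DBF4 (-0.60 ± 0.14), ORC5 (-0.58 ± 0.08) and MCM6 (-0.56 ± 0.18). Without 7 d replicate 2, 5 genes were called higher in this line, among them CDC45 and MCM7.

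**Figure D4:**
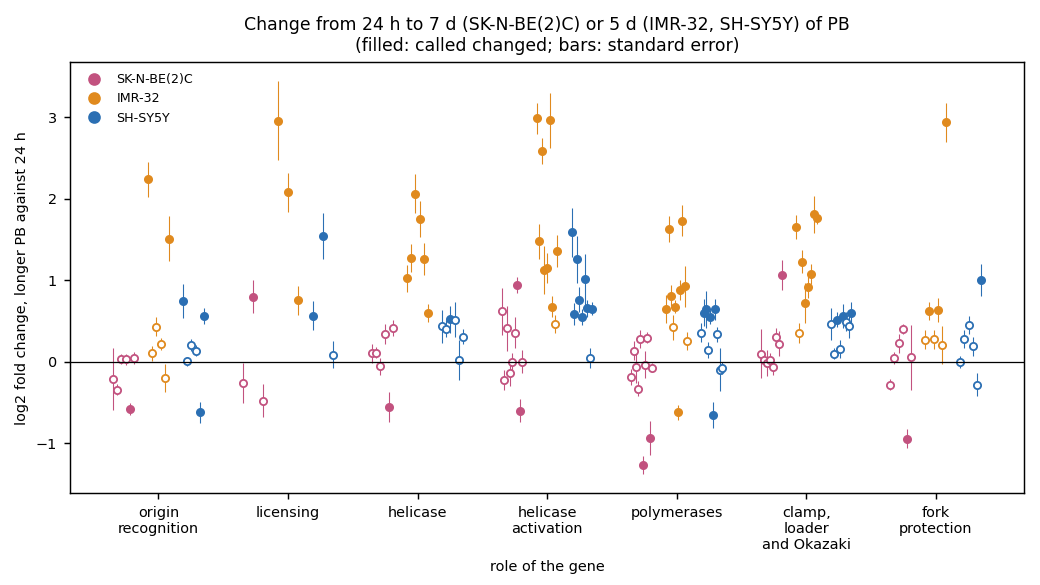
Log2 fold change from 24 h to the longer time (vertical axis, bars give the SE) for each of the 48 replication genes by role (horizontal axis) and line (colour), filled where called. The IMR-32 points lie above 0 apart from POLD2 and ORC5, with 36 called higher, the SH-SY5Y points lie lower with 21 called higher, and the SK-N-BE(2)C points scatter about 0.

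Whether the lines responded differently was tested as an interaction in 1 edgeR fit of all 45 libraries (16282 genes). At 24 h the response differed in 13 of 48 genes between SK-N-BE(2)C and IMR-32 (background 4.49%), and all 13 fell more in IMR-32. CDC6 differed by 2.45 ± 0.46, MCM4 by 1.77 ± 0.26 and MCM10 by 1.74 ± 0.40. Between IMR-32 and SH-SY5Y it differed in 7 (3.07%), all with the larger fall in IMR-32, CDC6 by -1.91 ± 0.46 and MCM4 by -1.24 ± 0.26. Between SK-N-BE(2)C and SH-SY5Y it differed in 2 (2.04%), LIG1 (-0.96 ± 0.20) falling more in SK-N-BE(2)C and CDC7 (0.93 ± 0.16) falling more in SH-SY5Y. Without IMR-32 replicate 5 these counts were 16 (6.05% of all genes), 9 (4.31%) and 4 (3.3%). With the replicate number as a block they were 17 (6.88%), 11 (5.69%) and 5 (4.11%).

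From 24 h to the longer time the response differed in 37 genes between SK-N-BE(2)C and IMR-32 (background 21.3%), all higher in IMR-32, led by CDC6 (-3.21 ± 0.47) and CLSPN (-2.86 ± 0.44). It differed in 22 genes between IMR-32 and SH-SY5Y (14.7%), again all higher in IMR-32, and in 11 between SK-N-BE(2)C and SH-SY5Y (15.9%), all higher in SH-SY5Y. Without IMR-32 replicate 5 these counts were 38 (23.7% of all genes), 25 (18.3%) and 15 (18.3%). For longer PB against control, the counts of 25 (23.9%), 11 (20.8%) and 8 (21.2%) lay nearer to the background in the last 2. Of the 25 genes, 24 had the lower log2 change in SK-N-BE(2)C than in IMR-32, CLSPN by -2.19 ± 0.40. The log2 change of CDC7 was the higher one in SK-N-BE(2)C, by 0.87 ± 0.15. The log2 change of CDC7 against control was also higher in SK-N-BE(2)C than in SH-SY5Y, by 1.22 ± 0.16. Without IMR-32 replicate 5 the counts against control were 31 (26.9% of all genes), 13 (24%) and 8 (23.4%), the last 2 again near or below the background.

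In untreated cells 27 of 48 genes differed between SK-N-BE(2)C and IMR-32, 27 between SK-N-BE(2)C and SH-SY5Y and 15 between IMR-32 and SH-SY5Y, where 62.1%, 57.5% and 54.2% of all genes did, so these counts were near or below the background. RPA2, a subunit of the single-strand binding protein, was lower in SK-N-BE(2)C than in IMR-32 by -1.62 ± 0.10. CDC7 was higher in IMR-32 than in SK-N-BE(2)C, the difference being -1.10 ± 0.11 for SK-N-BE(2)C minus IMR-32, and higher than in SH-SY5Y by 1.83 ± 0.11. RPA3 was lower in IMR-32 than in SH-SY5Y by -1.09 ± 0.12. The counts in each direction depended on the scaling and, where IMR-32 was compared, on its replicate 5. Of the genes that differed between SK-N-BE(2)C and SH-SY5Y, 7 were lower and 20 higher in the former, with TMM as with RLE factors. With TMM 29.7% of all genes were lower and 27.9% higher. Library size alone moved the median of all genes by -0.19 and gave 10 lower and 13 higher. Of all 16282 genes 5865 were then lower and 3424 higher. Between IMR-32 and SH-SY5Y the split was 6 and 9 with TMM (27.7% and 26.6% of all genes) and the same with RLE factors. It became 10 and 6 with library size alone (median moved by -0.18, 5522 and 3505 of all genes). Without IMR-32 replicate 5 it was 8 and 7 (4644 and 4365 of 16420 genes).

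Whether genes that work together moved in proportion was asked with 12 log2 ratios of CPM + 0.5 within libraries. Besides the pairs named below, the ratios were MCM2 to MCM8, GINS2 to GINS3, POLA1 to POLA2, POLD1 to POLE, RFC3 to RFC1 and RPA1 to RPA3. MCM2 to MCM8, POLD1 to POLE, PCNA to RFC1 and CDT1 to GMNN do not pair subunits of 1 complex. In 3 lines and at 2 times this gave 72 two-sided exact permutation tests of 5 libraries against 5. Such a test cannot give a p below 0.0079, and 53 of the 72 ratios changed at an adjusted p under 0.05 (Benjamini-Hochberg over the 72). The ratio of ORC1 to ORC4 fell from -0.16 ± 0.09 (SD, n = 5) in control SK-N-BE(2)C to -2.94 ± 0.78 at 24 h. In the 3 lines it changed by -2.79, -3.63 and -3.02 at 24 h, and by -2.88, -1.67 and -2.53 at the longer time (exact permutation test, adjusted p = 0.0119 in each, from the smallest unadjusted p the design allows). PCNA to RFC1, the clamp against its large loader subunit, changed by -2.01, -1.93 and -1.76 at 24 h and by -2.02, -0.62 and -1.48 later. POLE2 to POLE3 changed by -1.14, -1.73 and -1.44 and later by -2.0, -1.17 and -1.56. These ratios come from the same libraries as the log2 changes of these genes above, so their p-values are no separate support.

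The ratio of CDT1 to its inhibitor geminin fell at 24 h by -0.91, -1.11 and -1.47 in the 3 lines, in the same order. At the longer time it was 0.44 above control in SK-N-BE(2)C (exact permutation test, adjusted p = 0.0229), while it differed from control by 0.14 in IMR-32 (exact permutation test, adjusted p = 0.372) and by -0.11 in SH-SY5Y (exact permutation test, adjusted p = 0.501). CDC7 to DBF4 changed little at 24 h in SK-N-BE(2)C, by -0.05, and stood 1.47 higher at 7 d. In SH-SY5Y it changed by -0.53 at 24 h (exact permutation test, adjusted p = 0.0119), in IMR-32 it was at -0.22 (exact permutation test, adjusted p = 0.0702), and at 5 d neither line passed the test, at 0.09 and 0.00. TIMELESS to TIPIN changed at 24 h by -0.64 in SK-N-BE(2)C cells and by -0.45 in SH-SY5Y, and was at -0.19 in IMR-32, which did not pass. At the longer time it stood 0.67 higher in SK-N-BE(2)C and 0.25 higher in IMR-32 (exact permutation test, adjusted p = 0.0431), while SH-SY5Y, at -0.02, did not pass.

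**Figure D5:**
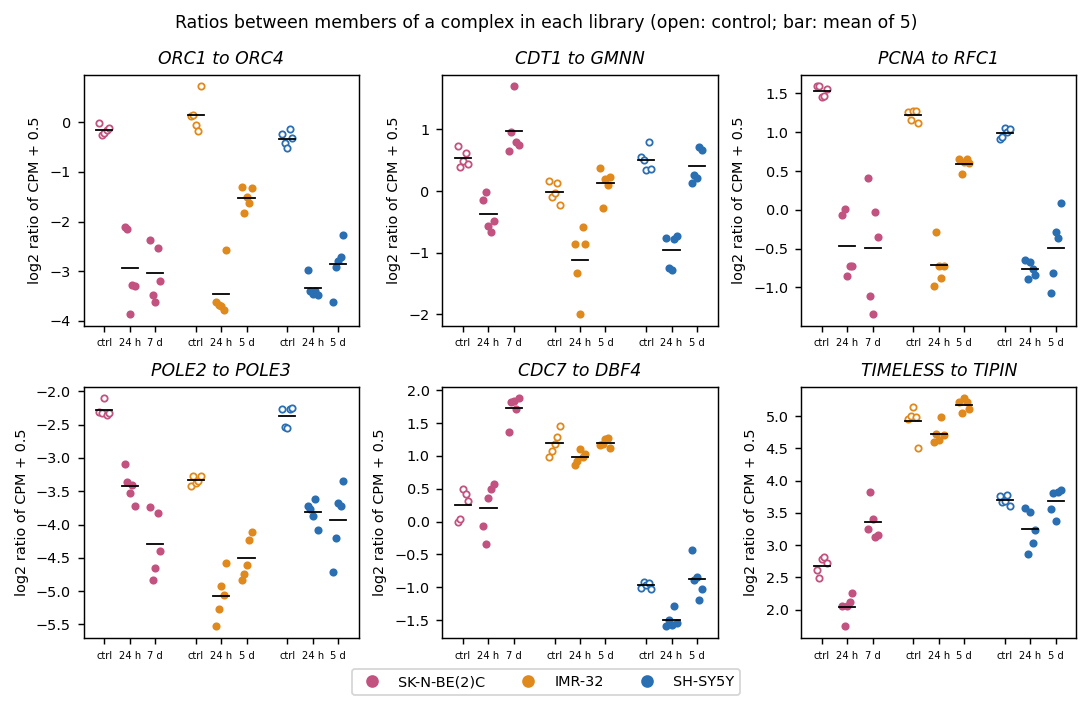
Log2 ratios of CPM + 0.5 in each library for ORC1 to ORC4, CDT1 to GMNN, PCNA to RFC1, POLE2 to POLE3, CDC7 to DBF4 and TIMELESS to TIPIN, by line and time. ORC1 to ORC4 drops at 24 h in each line by -2.79 to -3.63, CDT1 to GMNN drops at 24 h and returns, and CDC7 to DBF4 rises at 7 d in SK-N-BE(2)C.

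A further 41 genes of replication, taken from a list of 42 others that work at origins, forks, Okazaki fragments and newly made chromatin, gave a frame. At 24 h 27, 28 and 27 of them were called lower in the 3 lines, in the order used above (10.6%, 10.5% and 11% of all genes), and 1 in each was called higher (10.9%, 7.87% and 10.5%). Their medians were -1.03, -1.10 and -1.03. TICRR, needed to start origins together with TOPBP1, changed by -2.02, -3.68 and -2.66. PCLAF, a PCNA partner, changed by -2.96, -3.50 and -3.85, and TOP2A, the topoisomerase that untangles sister chromatids, by -3.23, -2.86 and -3.72. The gene called higher was POLD4, the smallest subunit of DNA polymerase δ, at 1.33, 1.03 and 0.72, so that within this 1 polymerase POLD1 and POLD3 fell, POLD2 was not called and POLD4 rose at 24 h. At the longer time 30, 21 and 29 of the 41 were called lower (22.3%, 15.5% and 17.3% of all genes), and 1 was called higher in SK-N-BE(2)C, the translesion polymerase gene POLI (0.64 ± 0.13), and 1 in SH-SY5Y, POLD4 (0.53 ± 0.13), where 24.5% and 18.6% of all genes were. Between the times 3, 22 and 11 were called higher (17.5%, 10.8% and 10.5%) and 5, 1 and 3 lower (14.4%, 8.86% and 6.23%), so that in SK-N-BE(2)C both counts lay below the share of all genes.

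For 4 genes over 10% of the exon bases lay under an exon on the opposite strand (MCM2, 23.6%, GINS4, 23.4%, GINS3, 10.9%, and RFC5, 10.6%), and which strand was counted was not given in the sources used here. Their values may hold reads of the partner. Of the 48 genes, 10 have a named processed pseudogene and 9 overlap a gene on their own strand, either of which could share reads with them.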

How the data were processed

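PolyA RNA of the 45 cultures was sequenced as directional paired-end libraries (NovaSeq). For the deposited gene counts the authors trimmed with Trim Galore 0.6.4, aligned to hg19 with STAR 2.6.1d and used DESeq2 1.32.0, per the submitters' processing notes. Which strand was counted was not given in the sources used here. Deposited CPM values from the authors were the counts scaled to 1000000 per library, which was checked for every value, and the tables also held the authors' fold changes and adjusted p-values, which were not used.

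The 15 libraries of a line were fitted with edgeR 4.0.16 in R 4.3.3 (TMM, filterByExpr with at least 10 counts, 15 in total and a share of 0.7, robust quasi-likelihood, 1 mean per group), with Benjamini-Hochberg adjustment over all genes tested and a call at an adjusted p under 0.05 and a log2 change over 0.5. The SE is the log2 change over the square root of the F value. On simulated data for 24 h against control, with 13985 to 14484 genes tested, the fit recovered 100% of the genes changed by 1 and by 2 on the log2 scale in each line, with 12, 10 and 5 false calls. The simulated libraries were independent, with the same variation for every gene and changes in well-counted genes alone. They held no outlying library such as IMR-32 replicate 5, so recovery with such a library was not tested. DESeq2 1.42.0, other scaling, no filter, other fold limits, a replicate block and left-out libraries were alternatives. Python 3.11.15 computed ratios and promoter motifs. Exon positions came from a GENCODE annotation on GRCh37.

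The 48 members, the other lists, the tests and the alternatives were chosen with earlier results of these data known. Values in every sample are given, in each role group, for the gene with the lowest mean change at 24 h and the one nearest 0, and for the 3 genes with the largest and the 3 with the smallest mean change between longer PB and 24 h. CDC6 and CDC7 were added after their values were seen. The study describes replicates as passages in independent experiments. Libraries of the same number correlated after removal of group means, with every pair over 0.1 in IMR-32, SH-SY5Y and between 24 h and control in SK-N-BE(2)C (lowest 0.109), but not in the comparisons with 7 d (lowest 0.0482).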

Additional observations from a re-analysis of the deposited data

Results flagged for a closer look

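Among 162 combinations of a named gene, or the sum over the 48 genes, with 1 of the 9 groups, 18 held a library far from the other 4. Chance would mark about 1 in 20 if the genes were independent, which genes of the same libraries are not, and 17 of the 18 came from the 3 libraries of IMR-32 replicate 5, the highest of their groups each time. In the controls it read 82.1 CPM for ORC1, 73.0 for GMNN, 498 for MCM4, 145 for RFC3, 220.3 for RPA1, 19.7 for TIPIN and 153 for CLSPN. At 24 h it read 8.46 CPM for ORC1, 216 for MCM2, 74.6 for MCM4, 13.2 for MCM10, 69.3 for RFC3 and 129 for RPA1, and its sum over the 48 genes was 2425 CPM. At 5 d it read 25.4 CPM for GMNN, 38.6 for DBF4 and 40.05 for PRIM1. The remaining one was ORC5 in SK-N-BE(2)C, 34.4 CPM in replicate 2 at 24 h.

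The response differed between lines by the interaction test in edgeR. At 24 h against control this held for 13 of 48 genes between SK-N-BE(2)C and IMR-32 (4.49% of all genes), 7 between IMR-32 and SH-SY5Y (3.07%) and 2 between SK-N-BE(2)C and SH-SY5Y (2.04%). For longer PB against control the counts were 25 (23.9%), 11 (20.8%) and 8 (21.2%) in this order, the last 2 near or below the share of all genes, and for longer PB against 24 h they were 37 (21.3%), 22 (14.7%) and 11 (15.9%).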

How the results depend on the processing

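Across every alternative run, no called fold change reversed. Called under each of them, the other fold limits aside, were 40 of 41, 42 of 42 and 42 of 42 genes at 24 h in the 3 lines (in the order of the text), 41 of 42, 34 of 37 and 40 of 45 at the longer time, and 6 of 9, 36 of 37 and 11 of 23 between the times. Without a fold limit, the genes called higher numbered 1 (24 h) and 1 (longer) in SK-N-BE(2)C cells, 1 and 1 in IMR-32 and 1 at 5 d in SH-SY5Y cells, and 9 between the times in SK-N-BE(2)C. With a fold limit of 1, 13 genes were called lower at 5 d in IMR-32, and between the times 1 lower and 1 higher in SK-N-BE(2)C, 0 lower in IMR-32, and 0 lower and 4 higher in SH-SY5Y. Leaving out 1 library at a time gave 3 to 5 genes higher between the times in SK-N-BE(2)C (5 without 7 d replicate 2), and in SH-SY5Y 0 to 2 lower (0 without 5 d replicate 1) and 11 to 28 higher (11 without 5 d replicate 5). Without filter 6 genes differed between SK-N-BE(2)C and SH-SY5Y from 24 h to the longer time (7.94% of 29159 genes, against 15.9% in the main fit). Without replicate 5 of IMR-32 4 differed between these lines at 24 h (3.3% of all genes). The E2F core stood in 20 genes in the 250 bases before the start alone. The causes were not tested. With the replicate number as a block 11 genes differed at 24 h between IMR-32 and SH-SY5Y (5.69% of all genes) and 5 between SK-N-BE(2)C and SH-SY5Y (4.11%). The block also took MCM4 in SH-SY5Y under the fold limit (0.49, longer against 24 h) and brought GMNN in SK-N-BE(2)C over it (-0.51), and changed no other call of a member within a line. The IMR-32 calls of CDC6 and GINS3 at 5 d were lost under 8 and 9 alternatives, at -1.18 to -0.80 and -0.77 to -0.40. Between the times the call of RFC3 in IMR-32 was lost under 9 (0.61 to 0.74) and that of PRIM1 in SH-SY5Y under 7 (0.47 to 0.66).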
